A study of Mus musculus with 15 samples.

Results

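The cytosolic ribosomal proteins are the structural proteins of the ribosome that works in the cytoplasm. Genes were chosen by name: the symbol had to be that of a small subunit (Rps) or large subunit (Rpl, Rplp) protein, and the listed gene type had to begin with protein coding. This gave 71 of the 16658 genes in the deposited table, 29 of the small and 42 of the large subunit, with the paralogs Rpl3l, Rpl22l1, Rpl36al, Rpl39l and Rps27l among them. A gene was tested when its level was at least 0 log2 CPM (log2 of the reads of a gene after scaling to library size) in at least 3 libraries, and 70 of the 71 passed. The exception was Rpl39l, between -3.93 and -1.01 log2 CPM, with 0 to 15 reads in a library. The rule leaves out genes whose symbol is written more than once in its cell, Rps6 and Rpl23 among them, and 3 ribosome genes with other names (Fau, Rps3a1 and Rack1). Genes of both kinds are described apart.

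Polyadenylated RNA was sequenced from heart tissue, infarct and border together, of male C57BL/6 mice aged 8 to 10 weeks. According to the labels, the left anterior descending coronary artery was tied for 90 min and reperfused for 24 h. The 11 libraries analysed fall into 5 groups: sham (replicates 003, 006 and 007), untreated (17 and 19), rivaroxaban (Riva-313 and Riva-319), dabigatran (Dabi-202 and Dabi-204) and activated protein C, aPC (aPC-791 and aPC-792). Rivaroxaban, an inhibitor of coagulation factor Xa, was given at 3 mg/kg for 7 days, and dabigatran, an inhibitor of thrombin (factor IIa), at 10 mg/kg for 7 days. The protease aPC, a natural anticoagulant that also signals to cells, was given at 1 mg/kg 30 min beforehand. Drugs were started again 2 h after surgery. One description of the operation covers the whole study, so what the sham and untreated groups went through is known by their names only. No allele or transgene is named for any group, and nothing says which libraries shared a day or batch. Each library has its own number, but no label says that a number is an animal, so p-values measure the spread between these libraries, which may be technical.

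A ribosome is built from ribosomal RNA and matched amounts of many proteins, and the genes of these proteins are known for being expressed together. Their mRNAs mostly begin with a cytosine followed by a run of pyrimidines, the 5′ terminal oligopyrimidine (TOP) motif, through which the kinase complex mTORC1 and the protein Larp1 control their translation. The heart has a composition of its own: Rpl3l is made almost only in heart and skeletal muscle, where it takes the place of its close relative Rpl3 in the large subunit.

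The sequences that follow show what the start of these genes looks like, for the matched members among those with the smallest p in the comparisons with dabigatran. They were read from RefSeq on GRCm38.p6, cover the 25 bases before the annotated start and the 20 bases from it on, and are written 5′ to 3′ on the strand of the gene. Capitals mark a TOP-like run, here a C that opens a run of at least 5 pyrimidines (C or T) within 5 bases either side of the annotated start, searched on the strand of the transcript only. Rpl12, Rps18, Rps26 and Rpl15 hold such a run. Rpl3l, Rpsa and Rpl10 do not in this window, so those are all in lower case.
Rpl12, chr2:32961687-32961731, plus strand: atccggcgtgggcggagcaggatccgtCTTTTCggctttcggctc
Rps18, chr17:33955646-33955690, minus strand: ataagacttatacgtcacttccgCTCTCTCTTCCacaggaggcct
Rps26, chr10:128626487-128626531, minus strand: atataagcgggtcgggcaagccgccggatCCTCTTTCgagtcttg
Rpl15, chr14:18270967-18271011, minus strand: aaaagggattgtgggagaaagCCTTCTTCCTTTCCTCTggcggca
Rpl3l, chr17:24727801-24727845, plus strand: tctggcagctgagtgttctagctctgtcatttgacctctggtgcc
Rpsa, chr9:120127741-120127785, plus strand: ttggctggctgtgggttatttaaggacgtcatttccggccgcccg
Rpl10, chrX:74270791-74270835, plus strand: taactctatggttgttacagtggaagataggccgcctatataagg

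Of the 71 members, 52 were matched to a RefSeq start, and 25 of these (48.1%) held a TOP-like run. The share was 21.2% over all 27025 genes of the RefSeq table and 23.8% over the 10382 tested genes outside the group that had a start. The run is a match of letters beside an annotated start and was not tied to a start measured in these hearts. Rpl3 was among the 19 members not matched.

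Reads on listed genes ran from 26203566 to 36135006 per library. Changes are log2 fold changes followed by their standard error from limma (±), and levels are followed by the SD where it is named. A gene is said to be called, to rise or to fall where its Benjamini-Hochberg adjusted p, taken over the 13541 tested genes of a comparison, lay under 0.05. The tissue was heart by its markers: 7 listed cardiomyocyte genes summed to between 43449 and 84033 CPM in every library. Gm42418, a gene that overlaps ribosomal RNA sequence, took 6.78% and 6.73% of reads in the aPC libraries and 0.997% to 2.09% in the other 9. Gm26917, another gene that overlaps such sequence, went the other way, with 4.75 and 4.66 log2 CPM in the aPC libraries and 6.62 to 7.53 in the other 9.

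The members moved as a block between replicates of the same group, which bears on every result that follows. In sham hearts all 70 tested members were higher in replicate 003 than in 007, by a median of 0.21 log2, and all 70 were higher in 006 than in 007, by 0.33. With dabigatran all 70 were higher in Dabi-202 than in Dabi-204, by a median of 0.36, and with aPC all 70 were higher in aPC-791 than in aPC-792, by 0.26. Untreated replicates differed by a median of 0.14, with 9 of 70 higher in 17, and rivaroxaban replicates by 0.05, with 14 of 70 higher in Riva-313. The SD of a member's difference around such a shift was 0.06 to 0.14 across the 7 replicate pairs, against 0.31 to 0.79 over all tested genes. Many of those lie at lower levels, where counting error is larger, and genes of a like level were not compared in this way. The members of a library are therefore not separate observations of its group.

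**Figure D1:**
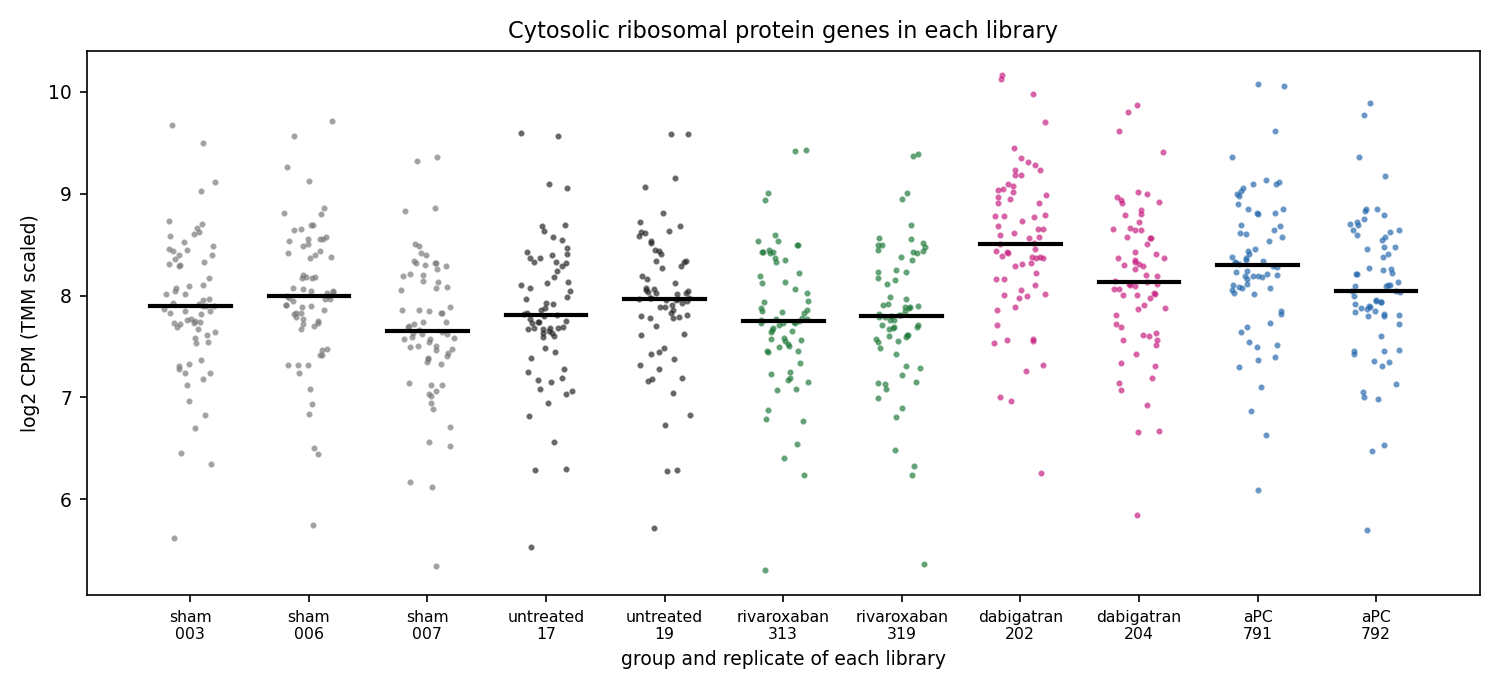
Level of 69 tested members (points, Rpl22l1 left out because it lies below the axis) in each of the 11 libraries, on the log2 CPM scale, with the median of all 70 tested members as a black bar. Both dabigatran libraries (medians 8.51 and 8.14) and both aPC libraries (8.30 and 8.05) lie above the highest median of the other libraries (8.00, sham replicate 006).

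The median member stood at 7.90, 8.00 and 7.65 log2 CPM in the sham libraries, at 7.80 and 7.97 in the untreated and at 7.75 and 7.80 in the rivaroxaban libraries. It stood at 8.51 and 8.14 with dabigatran and at 8.30 and 8.05 with aPC. Neither drug group overlapped with sham in the median member, but aPC-792 at 8.05 and Dabi-204 at 8.14 lay closer to sham replicate 006 at 8.00 than to the other library of their own group. As a share of all listed reads, the members took 1.59% to 2.02% in sham, 1.72% and 1.81% in untreated, 1.75% and 1.88% in rivaroxaban, 2.46% and 2.86% in dabigatran and 1.90% and 2.14% in aPC libraries. On that scale dabigatran stood apart from every other group and aPC overlapped with sham. In sham hearts the mean level over members was highest for Rps2 (9.58 log2 CPM), Rplp0 (9.46) and Rpsa (9.08), and lowest among tested members for Rpl22l1 (3.80). Per kilobase of transcript the highest levels in sham were those of Rplp1 (9.64), Rps2 (9.45) and Rps29 (9.39).

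Dabigatran against sham asks how hearts under the thrombin inhibitor differed from hearts of the sham group. Of 70 tested members 36 rose and 1 fell, where 11.7% of all tested genes rose and 6.82% fell. The median change was 0.49 on the log2 scale, or 1.40-fold, against 0.01 over all tested genes. Rpl3, which shapes the site where peptide bonds form, rose most, and its muscle paralog Rpl3l was the member that fell. Of the small subunit 12 of 29 rose (median change 0.45), and of the large subunit 24 of 41 rose (median 0.51). In 59 members both dabigatran libraries lay above all 3 sham libraries, as in 30% of all tested genes.

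**Figure D2:**
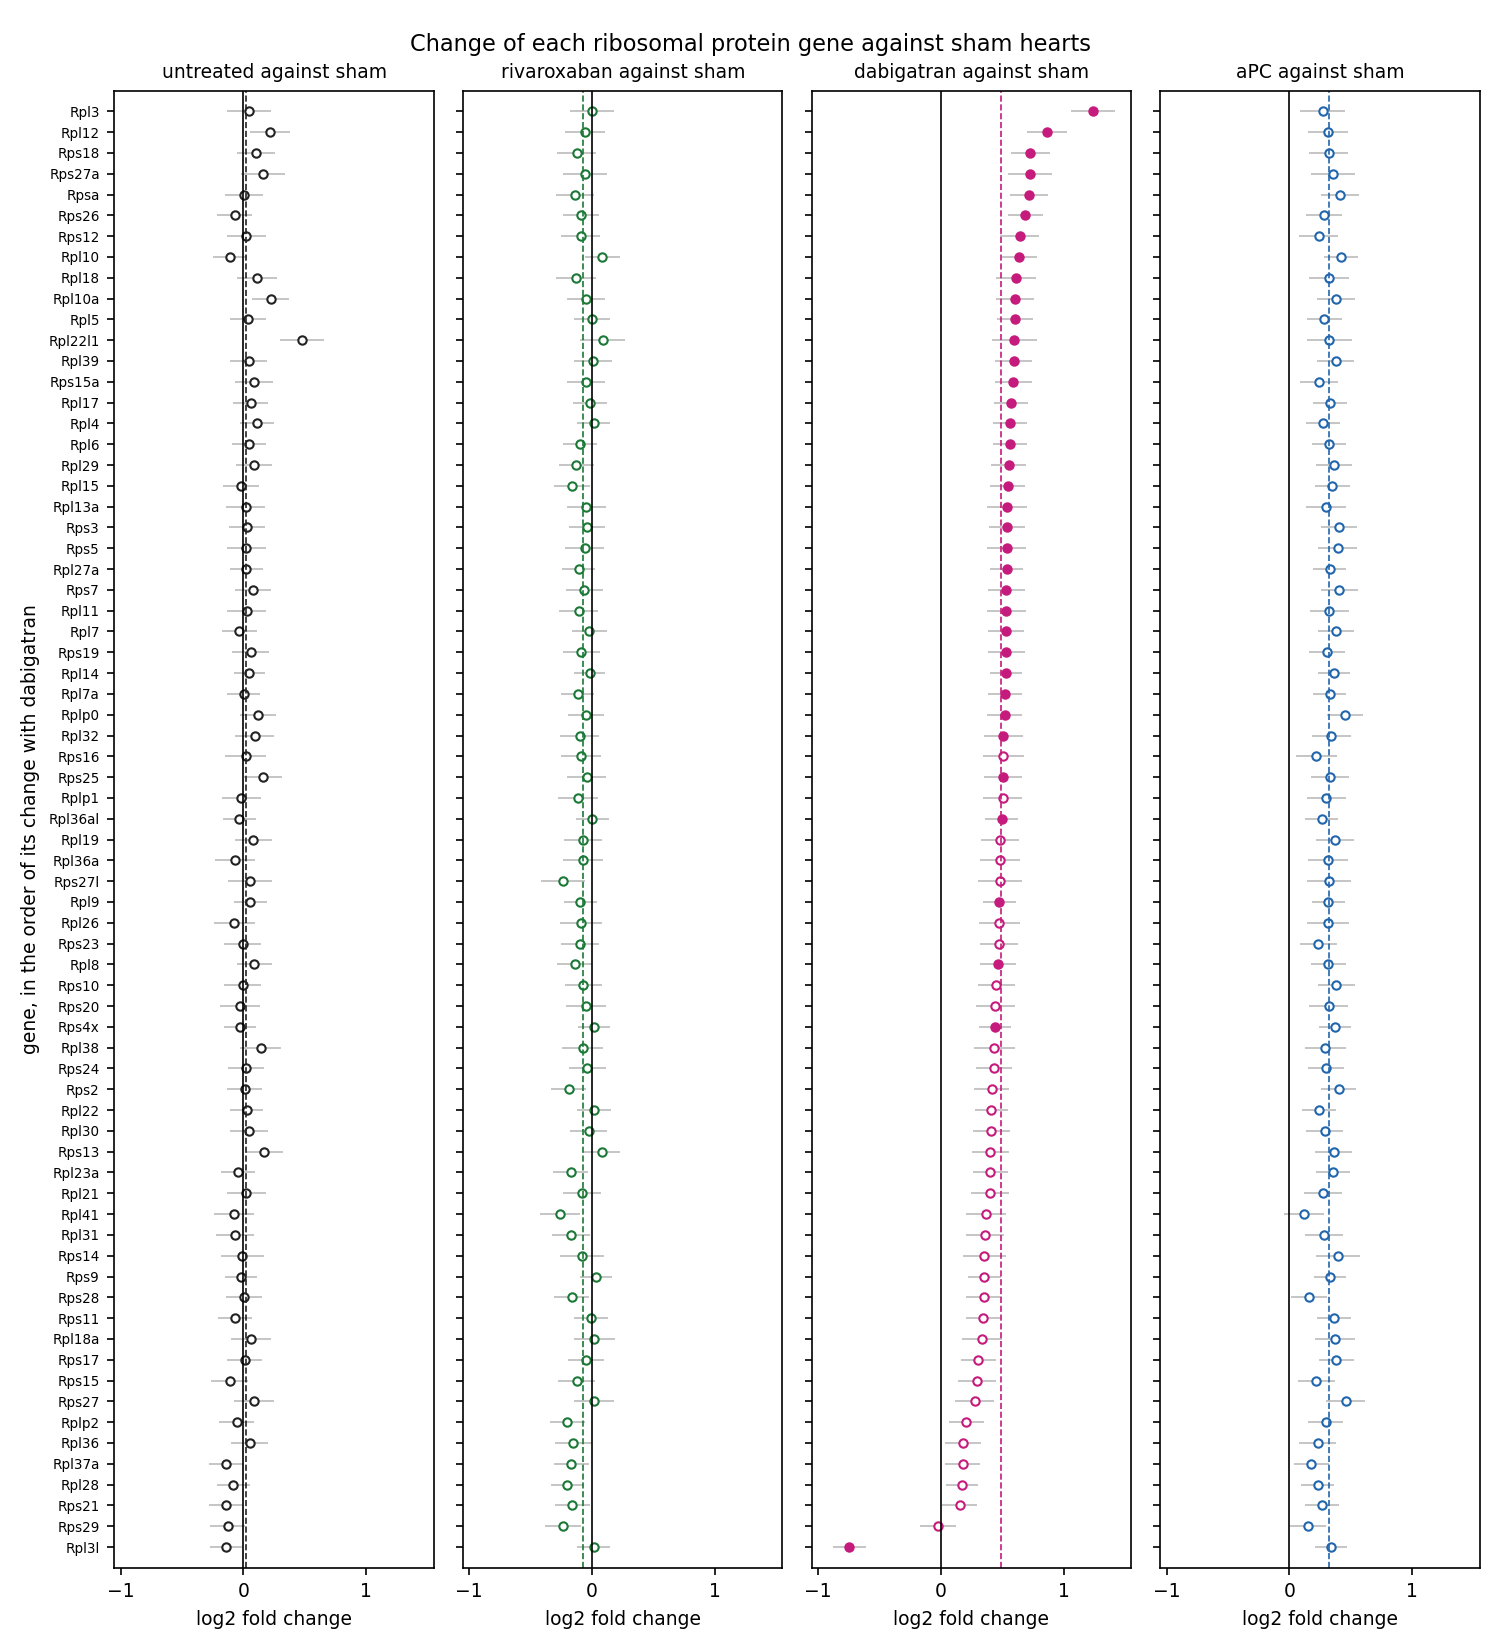
Change of each of the 70 tested members against sham in the 4 other groups (log2 fold change, bars show the standard error), sorted by the change with dabigatran, with filled points at an adjusted p under 0.05 and a dashed line at the median. With dabigatran 37 points are filled around a median of 0.49, with Rpl3 and Rpl3l at the ends, and in the other groups 0 are filled around medians of 0.03, -0.08 and 0.32.

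After Rpl3, which is described with Rpl3l further on, the member with the largest rise was Rpl12. Rpl12, a protein at the base of the ribosomal stalk (chr2:32961559-32965345, mm10, GENCODE M21, plus strand), stood at 7.75, 7.85 and 7.51 log2 CPM in sham and at 8.77 and 8.37 with dabigatran. The groups did not overlap, and Rpl12 rose by 0.86 ± 0.16 (adjusted p = 0.0071). Its levels were 7.82 and 8.02 in untreated, 7.68 and 7.62 in rivaroxaban and 8.19 and 7.85 in aPC hearts, all under the lower dabigatran library.

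Among small subunit proteins, Rps18, in the head of the subunit, stood at 8.02, 8.17 and 7.86 in sham and 8.99 and 8.51 with dabigatran, a rise of 0.73 ± 0.16 (adjusted p = 0.0125). Rps26, which lies at the exit of the mRNA channel, stood at 7.24, 7.31 and 6.95 in sham and 8.02 and 7.69 with dabigatran, a rise of 0.69 ± 0.14 (adjusted p = 0.0111). Rpsa, also known as the laminin receptor precursor, stood at 9.12, 9.26 and 8.86 in sham and 9.98 and 9.62 with dabigatran, a rise of 0.72 ± 0.15 (adjusted p = 0.0125). In each of these the lower dabigatran library lay above the highest sham library. Rps4x and Rps19, the latter known for its mutations in Diamond-Blackfan anaemia, rose by 0.44 and 0.53 (adjusted p = 0.0395 and 0.034). Rps29, by contrast, stood at 8.10, 8.18 and 7.83 in sham and 8.16 and 7.87 with dabigatran, a difference of -0.02 ± 0.15 (adjusted p = 0.937), with overlapping libraries.

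Among large subunit proteins, Rpl10, one of the last to join the maturing subunit (chrX:74270812-74273135), stood at 8.31, 8.40 and 8.22 in sham and 9.10 and 8.80 with dabigatran. It rose by 0.64 ± 0.14 (adjusted p = 0.0129). The partners of 5S ribosomal RNA, which can also bind and inhibit the p53 ligase Mdm2, both rose: Rpl5 by 0.60 ± 0.15 (adjusted p = 0.0191) and Rpl11 by 0.53 ± 0.16 (adjusted p = 0.0417). Rpl7, Rpl13a and Rpl39 rose by 0.53, 0.54 and 0.59 (adjusted p = 0.0295, 0.042 and 0.0249). The stalk proteins that recruit elongation factors were uneven. Rplp0 rose by 0.52 ± 0.15 (adjusted p = 0.0329), Rplp1 had a like difference that did not pass (0.51 ± 0.16, adjusted p = 0.0523), and Rplp2 stood at 0.21 ± 0.14 (adjusted p = 0.327). That these differ from each other was not tested.

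The counts rest on few libraries. Without library Dabi-202, whose members were the highest, the change was 0.661 for Rpl12, 0.49 for Rps18, 1.105 for Rpl3 and -0.868 for Rpl3l. Without Dabi-204 these were 1.067, 0.971, 1.374 and -0.618. Of the fits with 1 library left out, that without Dabi-202 called the fewest members here, against untreated and against rivaroxaban. The count of called members was 9 and 7 without sham replicates 003 and 007, where 8.84% and 10.8% of all tested genes were called. It was 17 (16 higher, 1 lower) when every library was centred on its own median, where 19% of all tested genes were called.

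Some members lay away from the shift of the whole group. Taking the member median of each library off, Rpl3 lay 0.77 above its sham position with dabigatran, Rpl12 0.39, Rps18 0.26, Rps27a 0.25 and Rpsa 0.24. Rps27a is made as a fusion with ubiquitin. On the other side Rpl3l lay at -1.22, Rps29 at -0.50, Rps21 at -0.32 and Rpl28 at -0.30. These positions use the same libraries as the fit and carry no test of their own.

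Rpl3 rose and Rpl3l fell with dabigatran against sham. In the unweighted fit of all libraries, neither was called against sham in the untreated, rivaroxaban or aPC groups. Rpl3 (chr15:80077791-80091868, mm10, GENCODE M21, minus strand) stood at 7.82, 8.04 and 7.58 log2 CPM in sham, 8.11 and 7.62 in untreated, 7.84 and 7.79 in rivaroxaban, 8.21 and 7.96 in aPC and 9.19 and 8.92 in dabigatran hearts. Rpl3l (chr17:24727820-24736143, plus strand) stood at 8.01, 7.95 and 7.86 in sham, 7.64 and 7.97 in untreated, 7.94 and 7.97 in rivaroxaban, 8.34 and 8.22 in aPC and 7.32 and 7.07 in dabigatran hearts. Both dabigatran libraries were thus the highest of the 11 for Rpl3 and the lowest of the 11 for Rpl3l. Against sham Rpl3 rose by 1.24 ± 0.18 (2.36-fold, adjusted p = 0.00228) and Rpl3l fell to 0.60-fold (-0.74 ± 0.13, adjusted p = 0.00542). Dabigatran and aPC hearts were not tested against each other.

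Against untreated hearts Rpl3 was higher with dabigatran by 1.19 ± 0.20 (adjusted p = 0.00453) and Rpl3l lower (-0.60 ± 0.14, adjusted p = 0.0225). Against rivaroxaban, with the sign as rivaroxaban minus dabigatran, Rpl3 stood at -1.24 ± 0.20 (adjusted p = 0.0023) and Rpl3l at 0.75 ± 0.14 (adjusted p = 0.00514). These comparisons share the dabigatran libraries. Leaving out any 1 library, both genes were called against sham and against rivaroxaban, with adjusted p up to 0.043 for Rpl3 and up to 0.0447 for Rpl3l. The Rpl3l call against untreated was lost without untreated replicate 19 (adjusted p = 0.0846), without library Dabi-204 (0.0937), with library weights (0.225) and in a fit of those groups alone (0.282). The Rpl3 call against untreated was lost with library weights (adjusted p = 0.0963) and in a fit of those groups alone (0.076).

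The pair has nearly the same transcript length, 1351 bases for Rpl3 and 1375 for Rpl3l, so length hardly sets their reads apart. Rpl3 shares 85.6% of its exact 50-base windows with other genes and Rpl3l 0%, so the level of the shares below is uncertain. Rpl3l took 53.3%, 48.4% and 54.8% of the reads of the pair in sham, 41.9% and 56.0% in untreated, 51.6% and 53% in rivaroxaban, 52.3% and 54.5% in aPC and 21.5% and 21.7% in dabigatran hearts. By group this was 52.2% ± 3.35 (SD, n = 3), 49.0% ± 9.97 (SD, n = 2), 52.3% ± 0.99 (SD, n = 2), 53.4% ± 1.56 (SD, n = 2) and 21.6% ± 0.141 (SD, n = 2). The widest 95% Wilson interval of a library reached 0.88 percentage points to either side, for counting error only. Untreated replicate 17 was the lowest outside the dabigatran group. The sum of both genes was 423 to 511 CPM in sham, 446 and 474 in untreated, 472 and 474 in rivaroxaban, 546 and 621 in aPC and 619 and 743 in dabigatran hearts, so the pair together was higher with dabigatran and with aPC than in any other library.

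The log2 difference Rpl3l minus Rpl3 was 0.19, -0.09 and 0.28 in sham and -1.87 and -1.85 with dabigatran. Its change with dabigatran against sham was -1.98, with an exact permutation p = 0.2 (two-sided), the smallest that 2 against 3 libraries allow. Against untreated the change was -1.80 and for rivaroxaban minus dabigatran 1.99, each with an exact permutation p = 0.333, the smallest that 2 against 2 allow. In the other 5 comparisons it lay between -0.19 and 0.26, with exact permutation p from 0.8 to 1. None of the 8 could reach 0.05.

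**Figure D3:**
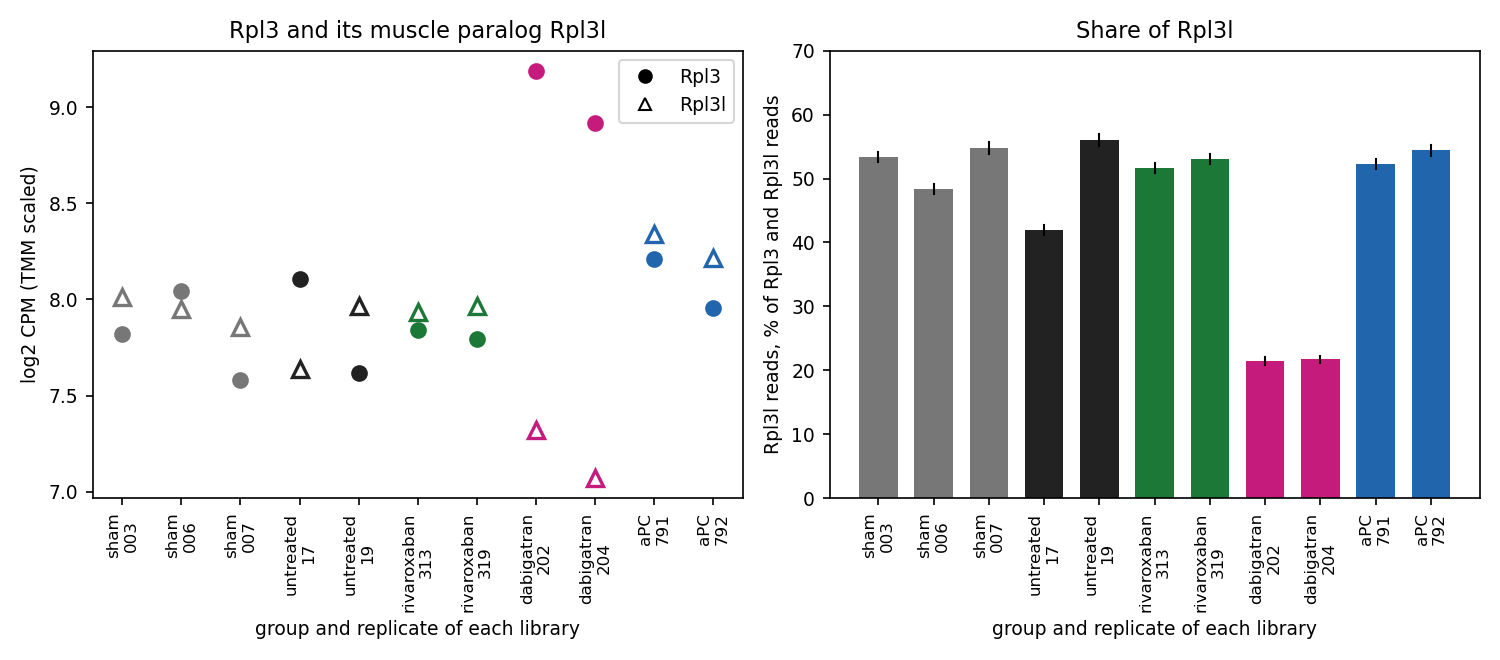
Left, Rpl3 (circles) and Rpl3l (triangles) in each library on the log2 CPM scale, and right, Rpl3l reads as a percentage of the reads of both genes, with 95% Wilson intervals as black lines. The dabigatran libraries show Rpl3 near 9, Rpl3l near 7 and shares of 21.5% and 21.7%, and the other 9 libraries shares from 41.9% to 56.0%.

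Many processed copies of ribosomal protein genes exist in the mouse genome, and how the authors' counting treated reads that match several of them is not given in the sources used here. In GENCODE M21 transcripts, 68 of 71 members shared at least 1 exact window of 50 bases with a transcript of another gene, and 35 shared over 50% of their windows. Rpl3 shared 85.6% of its windows with 26 other genes, most of all Rpl3-ps1, and Rpl3l shared 0%. Rpl10 shared 85.4%, Rps18 86.7%, Rpsa 53.5%, Rpl12 49.0% and Rps26 37.8%. The level of each such member is uncertain to that extent, as are the Rpl3l share of the pair and the Rpl3l minus Rpl3 difference. The part of this sharing in the changes was not tested.

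Cell type markers moved with the dabigatran group. The 6 leukocyte genes (6 of 6 called higher) summed to 616 and 652 CPM with dabigatran, against 173 to 242 in sham, 139 and 179 in untreated, 136 and 187 in rivaroxaban and 239 and 261 in aPC hearts. The 5 neutrophil genes (5 of 5 higher) summed to 427 and 812 CPM, against 25.7 to 41.5 in sham, 80 and 114 in untreated, 13.5 and 32.1 in rivaroxaban and 34.6 and 92.3 in aPC hearts. Of 6 macrophage and monocyte genes 3 were higher. The 7 cardiomyocyte genes (2 of 7 lower, the calcium release channel Ryr2 and the myosin Myh6) summed to 43449 and 44911 CPM with dabigatran and 55630 to 76861 in sham. Fibroblast (0 of 6) and endothelial (0 of 5) genes were not called, 1 of 4 smooth muscle and pericyte genes was lower, and 1 of 3 B cell genes was higher. The 4 T cell genes summed to 1.86 CPM at most and were not tested. The part of these cells in the members' change was not tested, and in bulk tissue a different number of cells of a type and a different amount of RNA per cell cannot be told apart.

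Dabigatran against untreated sets the drug against the group without a drug. Of 70 members 16 rose and 1 fell, where 8.71% of all tested genes rose and 5.08% fell, with a median change of 0.46 against 0.05 over all tested genes. Besides Rpl3 and Rpl3l, the smallest p were those of Rpl10 (0.75 ± 0.15, adjusted p = 0.0115), Rps26 (0.76 ± 0.16, adjusted p = 0.0126), Rpsa (0.71 ± 0.17, adjusted p = 0.0226), Rps18 (0.63 ± 0.17, adjusted p = 0.0382) and Rpl12 (0.65 ± 0.18, adjusted p = 0.039). Rpl10 stood at 8.37 and 8.03 in untreated hearts, under both dabigatran libraries. The shared estimate of spread is low for the untreated pair, whose libraries had weights of 0.242 where the weights were estimated (3.15 for sham replicate 003), so errors against this group run small. Markers moved here too: 6 of 6 leukocyte, 6 of 6 macrophage and monocyte, 4 of 5 neutrophil and 3 of 3 B cell genes were higher, while 2 of 7 cardiomyocyte and 1 of 5 endothelial genes were lower. The 6 macrophage and monocyte genes summed to 508 and 638 CPM with dabigatran, 132 and 142 in untreated and 351 to 508 in sham hearts. The part of the markers in the members' change was not tested. In 61 members both dabigatran libraries lay above both untreated libraries, as in 27% of all tested genes. The count of 17 was 0 in a fit of these groups alone and with library weights, where 1.26% and 0.923% of all tested genes were called. It was 5 with median centring, which moved the median of all genes by -0.11 (the members' median was then 0.35), and 41 after quantile normalization. In those fits 14.3% and 14.4% of all tested genes were called. Without sham replicates 003, 006 and 007 the count was 5, 6 and 13, where 9.67%, 10.4% and 11% were called. Without library Dabi-202 the change was 0.443 for Rpl12 and 0.533 for Rpsa, and without Dabi-204 it was 0.849 and 0.892. Without untreated replicates 17 and 19 the change of Rpl10 was 0.92 and 0.584.

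Rivaroxaban against dabigatran sets the inhibitors of the neighbouring coagulation steps, factor Xa and thrombin, side by side, at their own doses of 3 and 10 mg/kg. Of 70 members 47 were lower with rivaroxaban and 1 higher, where 14% of all tested genes were lower and 9.39% higher. The median difference was -0.57, or 0.675-fold, against 0.00 over all tested genes. The member higher with rivaroxaban was Rpl3l. After Rpl3 and Rpl3l, the smallest p were those of Rpl12 (-0.92 ± 0.18, adjusted p = 0.00568), Rpsa (-0.86 ± 0.17, adjusted p = 0.00622), Rps18 (-0.86 ± 0.17, adjusted p = 0.00671), Rps26 (-0.78 ± 0.16, adjusted p = 0.007) and Rpl15, a protein of the large subunit body (-0.71, adjusted p = 0.0109). In 69 members both rivaroxaban libraries lay under both dabigatran libraries, as in 36.3% of all tested genes. The member least apart besides Rpl3l was again Rps29 (-0.22 ± 0.16, adjusted p = 0.355). The count of 48 was 19 (18 lower) with median centring, where 23.2% of all tested genes were called. Without library Dabi-202 the difference was -0.719 for Rpl12, -0.676 for Rpsa and -0.617 for Rps18, and without Dabi-204 -1.125, -1.035 and -1.098. Without libraries Riva-313 and Riva-319 that of Rpl12 was -0.953 and -0.89. In each of these fits fewer members, and fewer of all tested genes, were called than in the full fit. With rivaroxaban 6 of 6 leukocyte, 5 of 5 neutrophil and 5 of 6 macrophage and monocyte genes were lower and 2 of 4 smooth muscle and pericyte genes higher, and their part in the difference was not tested.

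With aPC the members lay higher than in sham without any passing the test. Against sham 0 of 70 were called, where 1.17% of all tested genes were, and 30 of 70 were higher at an unadjusted p under 0.05, where 6.68% of all tested genes were. All 70 fold changes were above 0, from 0.12 (Rpl41) to 0.46 (Rps27), as were 53.1% of those of all tested genes, and their median was 0.32 against 0.03. In 48 members both aPC libraries lay above all sham libraries, as in 24% of all tested genes. The smallest p were those of Rplp0 (0.46 ± 0.15, adjusted p = 0.172), Rpl10 (0.42 ± 0.14, adjusted p = 0.187) and Rps4x (0.37 ± 0.13, adjusted p = 0.204). Rplp0 stood at 9.50, 9.57 and 9.32 in sham and 10.06 and 9.77 with aPC, without overlap. Rpl3l stood at 0.34 ± 0.13 (adjusted p = 0.236) and Rpl3 at 0.27 ± 0.18 (adjusted p = 0.47), both upward, unlike with dabigatran. Library weights gave 8 calls among the 70, all higher, with Rpl3l and Rps27 among them, where 13.2% of all tested genes were called. The levels of Gm42418 and, in the opposite direction, Gm26917 (-2.07 ± 0.16, adjusted p = 0.00117) moved with this group. Of the cell type markers 1 of 4 smooth muscle and pericyte genes was lower, and 0 of the leukocyte, neutrophil, macrophage and cardiomyocyte genes were called. The part of these in the members' differences was not tested.

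Against untreated hearts 2 of 70 members rose with aPC, where 7.44% of all tested genes did. Rpl10 stood at 8.37 and 8.03 in untreated and 8.81 and 8.65 in aPC hearts and rose by 0.53 ± 0.15 (adjusted p = 0.0388). Rpl3l stood at 7.64 and 7.97 in untreated and 8.34 and 8.22 in aPC hearts and rose by 0.48 ± 0.14 (adjusted p = 0.0448). The groups did not overlap for either gene. Neither call held with library weights or in a fit of these groups alone, where 1.73% and 0.0222% of all tested genes were called. Without sham replicates 003, 006 and 007 0 members were called, where 11.9%, 12.9% and 14% of all tested genes were. Leaving out 1 library, the change ran from 0.364 to 0.7 for Rpl10 and from 0.314 to 0.642 for Rpl3l. The median difference over members was 0.30 against 0.07 over all tested genes. Of the markers 4 of 6 macrophage and monocyte genes rose, led by Lyz2, a lysozyme (2.30 ± 0.19, adjusted p = 0.000241), and Adgre1, a macrophage surface receptor (1.82 ± 0.27, adjusted p = 0.00379). The 6 genes summed to 500 and 504 CPM with aPC, 132 and 142 in untreated and 351 to 508 in sham hearts. In untreated against sham 4 of these 6 were lower. Besides, 2 of 6 leukocyte genes rose, 1 of 5 endothelial genes rose and 1 fell, and 1 of 4 smooth muscle and pericyte genes fell, while Gm26917 stood at -2.66 (adjusted p = 7.93e-05). The part of these in the members' change was not tested.

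Rivaroxaban and untreated hearts gave no member past the test against sham or against each other. For untreated against sham 0 of 70 members were called by limma, where 10.6% of all tested genes were, and 1 had an unadjusted p under 0.05, as did 31.9% of all tested genes. That 1 was Rpl22l1, a low-level relative of Rpl22, which stood at 3.87, 3.86 and 3.68 in sham and 4.10 and 4.46 in untreated hearts (0.48 ± 0.18, adjusted p = 0.107). The median member difference was 0.03, and -0.04 after quantile normalization. Markers moved in this comparison: 4 of 6 macrophage and monocyte, 2 of 6 fibroblast, 1 of 6 leukocyte and 1 of 4 smooth muscle and pericyte genes were lower. Higher were 3 of 5 neutrophil genes, and of 5 endothelial genes 1 was higher and 1 lower. Without untreated replicate 17 the difference of Rpl22l1 was 0.66, in a fit where replicate 19 stood for its group and was assumed to vary like the others. For rivaroxaban against sham 0 of 70 were called by limma, where 0% of all tested genes were, and 0 members but 5.62% of all genes had an unadjusted p under 0.05. The median was -0.08, and the smallest p were those of Rps29 (-0.24 ± 0.15), Rpl41 (-0.26 ± 0.16) and Rpl28 (-0.20 ± 0.13), with adjusted p from 0.991 to 0.997. For rivaroxaban against untreated 0 of 70 were called by limma, where 8.47% of all tested genes were, and 0 members but 29.5% of all genes had an unadjusted p under 0.05. The median was -0.11, and the libraries of 36 members lay lower without overlap, as for 27.4% of all tested genes. The smallest p was again that of Rpl22l1 (-0.39 ± 0.20, adjusted p = 0.22). A standard error of about 0.15 leaves differences of the size of these medians undetectable here.

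In the other paralog pairs no member fell with dabigatran against sham. Rpl22l1 minus Rpl22, a level difference on the log2 scale, was -3.35 ± 0.10 (SD, n = 3) in sham, -2.90 ± 0.12 (SD, n = 2) in untreated, -3.28 ± 0.25 (SD, n = 2) in rivaroxaban, -3.17 ± 0.03 (SD, n = 2) in dabigatran and -3.27 ± 0.06 (SD, n = 2) in aPC hearts. Rpl22l1 rose with dabigatran against sham (0.60 ± 0.18, adjusted p = 0.0453), while Rpl22 stood at 0.41 (adjusted p = 0.0593). Rpl36al and Rpl36a differed by -0.04, 0.00, 0.04, -0.03 and -0.09 in the same order of groups, and against sham with dabigatran Rpl36al rose by 0.50 ± 0.13 (adjusted p = 0.0294) and Rpl36a stood at 0.48 (adjusted p = 0.0669). Rps27l minus Rps27 was -1.99 in sham, -2.02 in untreated, -2.24 in rivaroxaban, -1.78 in dabigatran and -2.12 in aPC hearts. Neither gene was called against sham in any group in the unweighted fit of all libraries. These differences are not adjusted for transcript length. Per kilobase those in sham were -1.459 for Rpl22l1, -1.439 for Rpl36al and -2.315 for Rps27l, each minus its partner. Sequence sharing with other genes was also unequal, with 98.6% of windows for Rps27 and 13.7% for Rps27l. Rpl39l had 2, 2 and 1 reads in sham, 8 and 7 in untreated, 3 and 15 in rivaroxaban, 0 and 1 in dabigatran and 1 and 2 in aPC libraries, too few to compare.

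Within the group, shorter coding sequences went with smaller differences from sham with dabigatran and aPC, as a description across genes. Over 69 tested members without Rpl3l, the 35 at or under the median coding length of 462 bases had a median change of 0.44 with dabigatran against sham, and the 34 longer ones 0.53. Spearman's rho between coding length and change was 0.45 over these members and -0.08 over 12761 other tested genes. With aPC the medians were 0.29 and 0.36 and rho was 0.48, against -0.37 over the other genes. With rivaroxaban the medians were -0.09 and -0.06 with a rho of 0.255. In untreated hearts they were 0.01 and 0.04 with a rho of 0.249. Within replicate pairs rho ran from -0.29 to 0.46, the latter between the rivaroxaban libraries, so a relation of this size also appears without a difference in treatment. The genes of a library share its depth and RNA quality and are not independent.

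**Figure D4:**
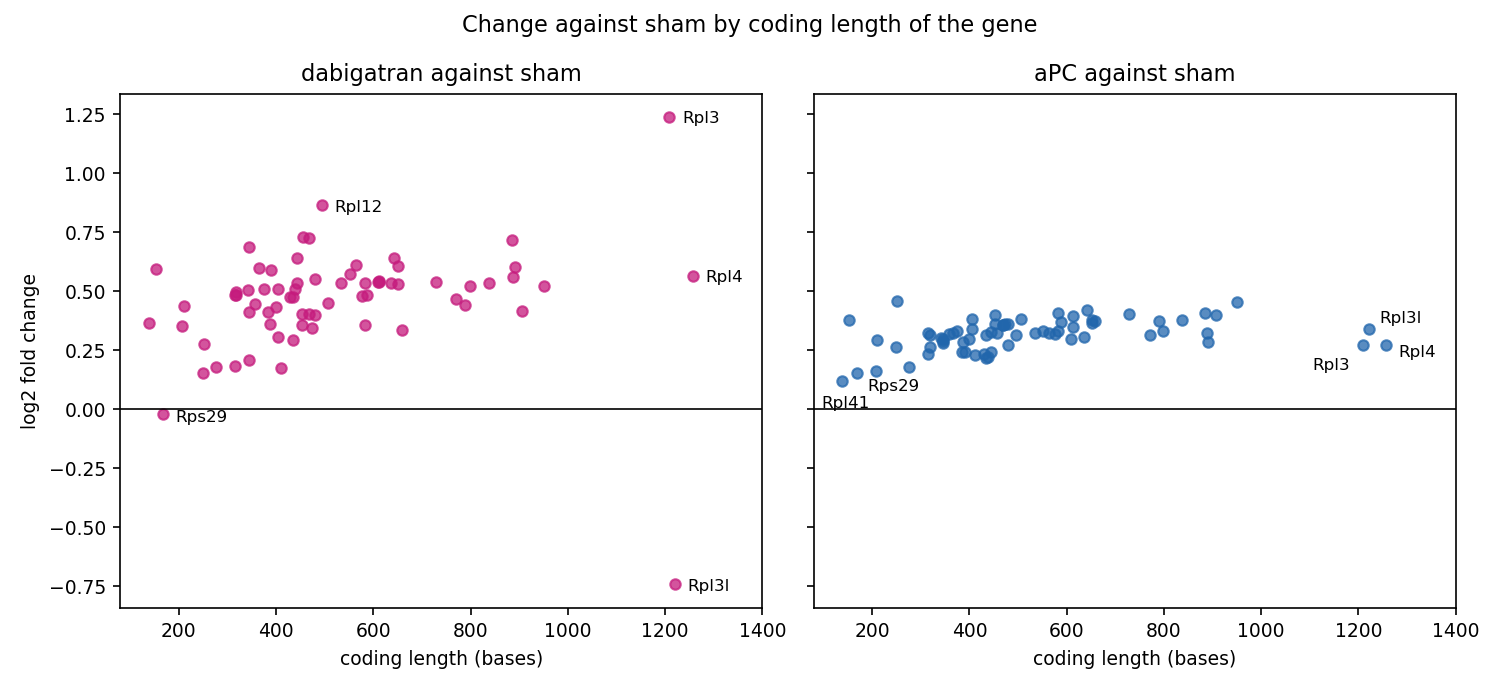
Change against sham (log2 fold change) with dabigatran, left, and aPC, right, for each of the 70 tested members by coding length in bases. Of the short members, Rps29 (-0.02 with dabigatran and 0.16 with aPC) lies low in both panels, while Rpl39 (0.59 and 0.38) does not. Rpl3 and Rpl3l lie far apart at almost the same length with dabigatran only.

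Members with and without a TOP-like run at the annotated start gave these values. With dabigatran against sham the 25 tested members with such a run, Rpl12, Rps18 and Rps26 among them, had a median change of 0.48 and 12 called, and the 26 without one, Rpsa and Rpl10 among them, a median of 0.51 and 17 called, 1 of them Rpl3l, which fell. The 19 members not matched had a median of 0.45 and 8 called. Of all tested genes 11.7% rose and 6.82% fell in this comparison.

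Ribosome genes outside the naming rule were described in the same way. With dabigatran against sham Rack1, a scaffold on the small subunit, rose by 0.60 ± 0.15 (adjusted p = 0.0194) and Rps3a1 by 0.55 ± 0.15 (adjusted p = 0.0315), while Fau, a fusion of a ubiquitin-like protein with Rps30, stood at 0.29 ± 0.15 (adjusted p = 0.206). Of 5 genes with a repeated symbol 1 rose, Rps6, the substrate of S6 kinase, by 0.60 ± 0.15 (adjusted p = 0.0194). The other 4 did not pass: Rpl23 stood at 0.46 (adjusted p = 0.0523), Rpl34 at 0.45 (0.0778), Rpl27 at 0.43 (0.0841) and Rpl37 at 0.35 (0.143). In aPC hearts against sham 0 of these 5 were called, and neither were Rack1, Rps3a1 and Fau.

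A list of 20 genes known for a TOP motif held mostly translation factors and partners, with the noncoding RNA Gas5 and the splicing factor Hnrnpa1 among them. Of these 20, 9 rose and 0 fell with dabigatran against sham, with a median of 0.43, where 11.7% of all tested genes rose and 6.82% fell. Pabpc1, the poly(A) binding protein, stood at 7.49, 7.34 and 7.33 in sham and 8.58 and 8.37 with dabigatran and rose by 1.09 ± 0.13 (adjusted p = 0.00124). Npm1, a nucleolar chaperone of ribosome assembly, stood at 7.19, 7.30 and 7.15 in sham and 8.78 and 8.27 with dabigatran and rose by 1.31 ± 0.17 (adjusted p = 0.00145). The elongation factor Eef1a1 rose by 0.96 ± 0.16 (adjusted p = 0.00386) and the histone chaperone Nap1l1 by 0.70 ± 0.12 (adjusted p = 0.00442). Eef1a2, the form of that elongation factor used by adult muscle, fell (-0.61 ± 0.16, adjusted p = 0.0245). It also fell in untreated against sham hearts (-0.57 ± 0.16, adjusted p = 0.0449), where Rpl3l stood at -0.14 ± 0.13 (adjusted p = 0.489). Of this list 10 of 20 were lower with rivaroxaban than with dabigatran, where 14% of all tested genes were, and 0 were called for aPC or untreated against sham.

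Regulators and genes of ribosome production were counted in the same comparison. Of 20 genes of mTORC1 and TOP control 2 rose and 2 fell with dabigatran against sham (median 0.00), a share near that of all tested genes, of which 11.7% rose and 6.82% fell. Myc, a transcription factor that drives ribosome production, rose by 2.71 ± 0.33 (adjusted p = 0.00127) and the mTORC1 inhibitor Sesn2 by 1.35 ± 0.25 (adjusted p = 0.0064), while Sesn1 (-0.81 ± 0.23, adjusted p = 0.0373) and Tsc1, also inhibitors (-0.40 ± 0.12, adjusted p = 0.0456), fell. Myc, whose part in the members' change was not tested, also rose in untreated against sham hearts (2.19 ± 0.33, adjusted p = 0.00566). It stood at 2.84, 2.52 and 2.52 log2 CPM in sham, 4.67 and 4.96 in untreated, 2.63 and 3.25 in rivaroxaban, 5.83 and 4.83 in dabigatran and 3.38 and 2.60 in aPC hearts. Of 12 genes of RNA polymerase I and 5S RNA transcription 0 were called with dabigatran against sham (median 0.25), with Polr1b at 0.57 ± 0.19 (adjusted p = 0.0649). Of 8 genes on a list for ribosome rescue and storage, which also held the transcriptional corepressor Ncor1, 1 rose. It was Serbp1, which holds idle ribosomes, by 0.56 ± 0.13 (adjusted p = 0.0163). Of 10 p53 and ribosomal stress genes 4 rose, Bax (0.96 ± 0.18, adjusted p = 0.00611), Trp53, Phlda3 and Zmat3, and 2 fell, Ccng1 and Sesn1. Mdm2 stood at 0.33 ± 0.15 (adjusted p = 0.143).

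The 72 mitochondrial ribosomal proteins, which build the separate ribosome of mitochondria, gave other counts than the cytosolic ones. With dabigatran against sham 1 rose (Mrps18b, 0.62 ± 0.16, adjusted p = 0.0261) and 3 fell (Mrpl34, Mrpl14 and Mrpl55), with a median of -0.11 beside 0.49 for the cytosolic members, where 11.7% of all tested genes rose and 6.82% fell. For aPC against untreated 22 of 72 rose and 0 fell, where 7.44% of all tested genes rose, with a median of 0.40, led by Mrps16 (0.96 ± 0.14, adjusted p = 0.00391) and Mrpl34 (1.08 ± 0.17, adjusted p = 0.00423), beside the 2 of 70 cytosolic members above. For aPC against sham both had 0 called and medians of 0.27 and 0.32. The difference between these lists was not tested.

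Other genes of a like level are set beside the members for scale. Of 1667 other tested genes at 6.62 log2 CPM or more, 11.7% were higher and 16% lower with dabigatran against sham, with a median of -0.15. With aPC against sham their median was 0.16, beside 0.32 for the members, and for rivaroxaban against dabigatran 14.6% of them were lower.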

How the data were processed

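The deposited values were log2 CPM after TMM normalization by the authors, per the file headers and name. The submitters' processing notes list bcl2fastq, FastQC, Trim Galore, STAR and edgeR with build mm10. Which counter, annotation, strand option and gene filter were used is not given in the sources used here, so reads of a gene and of an antisense or overlapping partner cannot be told apart. Of 15 labelled samples 11 had a column, and 4 were not analysed here.

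Once the lowest value of a library was taken off on the linear scale, 100% of the values of up to 2000 reads came out as whole read numbers (tolerance 0.05). These gave the read numbers, shares and CPM sums, with Wilson intervals for counting error only. A small prior had been added before the log, so changes of genes with few reads are understated.

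The test was limma-trend, two-sided, on the log2 values, in 1 fit of 5 group means over the 11 libraries (R 4.3.3, limma 3.58.1), checked on simulated data. The Rpl3l minus Rpl3 difference was compared by exact permutation tests. The alternatives were no filter, a filter at 2 log2 CPM, median centring, quantile normalization, a fit of the compared groups alone, library weights and each library left out. Leaving out both untreated or both aPC libraries was added after seeing the data.

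The members, lists and tests were chosen with earlier results of these data known. In each comparison the text names up to 6 called members per direction with the smallest p, or up to 3 where none passed, a fixed set of paralogs and stalk, 5S and other well-known members, and up to 4 genes of another list. Names outside this rule, such as Rps29, Rps21, Rpl28, Rpl41 and Rps27a, were chosen after their values were seen. Positions and transcript lengths are from GENCODE M21, with which all 71 members matched, and sequences from RefSeq. Some genes that the naming rule leaves out are not reported here.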

Additional observations from a re-analysis of the deposited data

How the results depend on the processing

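No paired analysis was possible because no replicate number is shared between groups. Groups hold 2 or 3 libraries, depth was not varied among the alternatives, and the cause of each change given here was not tested.

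With median centring the member count was 17 for dabigatran against sham, 5 for dabigatran against untreated and 19 for rivaroxaban against dabigatran. In those fits 19%, 14.3% and 23.2% of all tested genes were called. Dabigatran against untreated also gave 41 with quantile normalization and 7 without both aPC libraries, where 14.4% and 10.5% were called. It gave 0 with library weights and 0 in the fit of those groups alone, where 0.923% and 1.26% were called. The aPC count was 8 against sham with library weights, where 13.2% of all tested genes were called. Against untreated it was 1 with no filter and 1 with quantile normalization, where 14.4% and 17.8% were called. With library weights and in the fit of those groups alone it was 0 and 0, where 1.73% and 0.0222% were called. Median centring moved the median of all genes by -0.09 for dabigatran against sham, -0.11 for dabigatran against untreated and 0.10 for rivaroxaban against dabigatran.

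With 1 library left out at a time, the count of called members ran from 0 to 1 for untreated against sham, 2 to 53 for dabigatran against sham, 2 to 29 for dabigatran against untreated, 0 to 2 for aPC against untreated and 2 to 58 for rivaroxaban against dabigatran. It stayed 0 in the other comparisons. The share of all tested genes called also moved between these fits, so these counts do not speak of the members alone. In each comparison that holds dabigatran, the lowest count came without library Dabi-202 and the highest without Dabi-204. The share of all tested genes called was also lower without Dabi-202 than without Dabi-204 in each. Both of these fits leave 1 dabigatran library. A library left alone in its group was assumed to vary like the others.

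Signs turned only where the value had not been called. Leaving out 1 library, untreated against sham ran from -0.197 to 0.291 for Rpl3, -0.303 to 0.026 for Rpl3l and -0.594 to 0.223 for Rpl3l minus Rpl3. Rivaroxaban against sham ran from -0.116 to 0.117, -0.03 to 0.048 and -0.1 to 0.086, and rivaroxaban against untreated from -0.289 to 0.199, -0.014 to 0.314 and -0.213 to 0.603, in that order. For aPC, Rpl3l minus Rpl3 ran from -0.04 to 0.146 against sham and -0.153 to 0.664 against untreated, and Rpl3 from -0.021 to 0.466 against untreated. Quantile normalization gave Rpl3 -0.002 for untreated against sham and 0.052 for rivaroxaban against untreated. Library weights gave -0.02 for Rpl3 and -0.019 for Rpl3l in rivaroxaban against sham.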
